A study of Mus musculus with 54 samples.

Results

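Among the 54 single mouse lung cells of the series, 27 were compared here: 13 with a high and 14 with a low level of a programme of 5 genes, Lyve1, Folr2, Cd163, Cbr2 and F13a1. Cells were first kept if their mean log2(TPM + 1) of Prg4, Alox15 and Fn1, genes that are abundant in macrophages of the serous cavities, was under 7, which left 31 non-serous cells and set 23 aside. TPM is a gene's share of a cell's transcripts, corrected for gene length and scaled to a fixed total. The mean log2(TPM + 1) of the 5 programme genes was then the score. Cells with a score of 4 or more are called high cells, those under 2 low cells, and the 4 cells between are called intermediate. All 54 cells carry 1 label, interstitial macrophages, and come from 1 group with no genotype, strain, age, treatment, sort gate, animal or plate named. Each cell gave a library of its own, made with a version of SMART-seq2, which copies whole transcripts. Cells are numbered 1 to 54 in the order of deposition, and the number is a name only. Cells are not replicates of a condition, and the high and low cells were picked by measured values of these same cells. The differences below therefore describe 27 cells, with no p-value or standard error.

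Interstitial macrophages live in the tissue of the lung, around its vessels, nerves and airways, and not in the airspaces. In many mouse tissues they include a Lyve1-expressing kind that lies along vessels, is rich in scavenger receptors and poor in MHC class II, and a kind that is rich in MHC class II, the molecule that presents antigen to CD4+ T cells. Of the 5 programme genes, Lyve1 encodes a receptor for hyaluronan, Folr2 the folate receptor beta, Cd163 the scavenger receptor for haptoglobin and haemoglobin, Cbr2 a carbonyl reductase and F13a1 the A subunit of coagulation factor XIII.

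Promoters of Folr2 and Cbr2 are shown because these were present together in 10 of 13 high and 0 of 14 low cells, and because theirs hold the letters marked below, chosen after the motif search. RefSeq (GRCm38.p6) had promoters, 300 bases around a transcription start, for 4 of the 5 genes. Folr2 has a pair of starts on chromosome 7 and Cbr2 has 1 on chromosome 11, all on the minus strand, and each sequence is written 5′ to 3′ along that strand. Capitals mark the letters TGCTGA or their reverse complement, a half-site that Maf-family transcription factors are known to bind.
Folr2 first start, chr7:101857141-101857440: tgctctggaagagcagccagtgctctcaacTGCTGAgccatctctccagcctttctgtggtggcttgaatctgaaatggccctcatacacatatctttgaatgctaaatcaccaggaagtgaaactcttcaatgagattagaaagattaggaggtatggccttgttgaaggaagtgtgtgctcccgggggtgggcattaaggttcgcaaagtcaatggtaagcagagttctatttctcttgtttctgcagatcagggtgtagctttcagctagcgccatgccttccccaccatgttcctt
Folr2 second start, chr7:101845282-101845581: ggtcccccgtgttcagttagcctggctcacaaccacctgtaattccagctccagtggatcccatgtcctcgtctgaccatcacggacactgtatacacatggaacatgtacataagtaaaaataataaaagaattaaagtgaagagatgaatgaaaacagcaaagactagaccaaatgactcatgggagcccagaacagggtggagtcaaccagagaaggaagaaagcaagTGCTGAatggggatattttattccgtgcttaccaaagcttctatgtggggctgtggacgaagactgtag
Cbr2, chr11:120731972-120732271: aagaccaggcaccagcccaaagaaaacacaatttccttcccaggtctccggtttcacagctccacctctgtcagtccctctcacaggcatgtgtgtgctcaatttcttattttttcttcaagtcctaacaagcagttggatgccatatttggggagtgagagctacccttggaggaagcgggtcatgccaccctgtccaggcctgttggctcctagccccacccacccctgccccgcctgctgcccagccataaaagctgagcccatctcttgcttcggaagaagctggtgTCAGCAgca
These letters, searched on both strands, were in 3 of 6 promoters of the programme, those of 2 of 4 genes, and in 19.5% of all 32851 promoters of the same length. CCNCNCCC, letters like those that Klf factors bind, were in 3 of the 6 promoters, those of 3 of the 4 genes, and in 49.5% of all promoters. GAGGAA, the core bound by PU.1, was in 3 of the 6 promoters, those of 2 of the 4 genes, and in 28.3% of all promoters. The motifs were chosen after the values of the genes were seen, and a match is a description of letters only. No match of one motif overlapped a match of another in these 6 promoters.

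**Figure D1:**
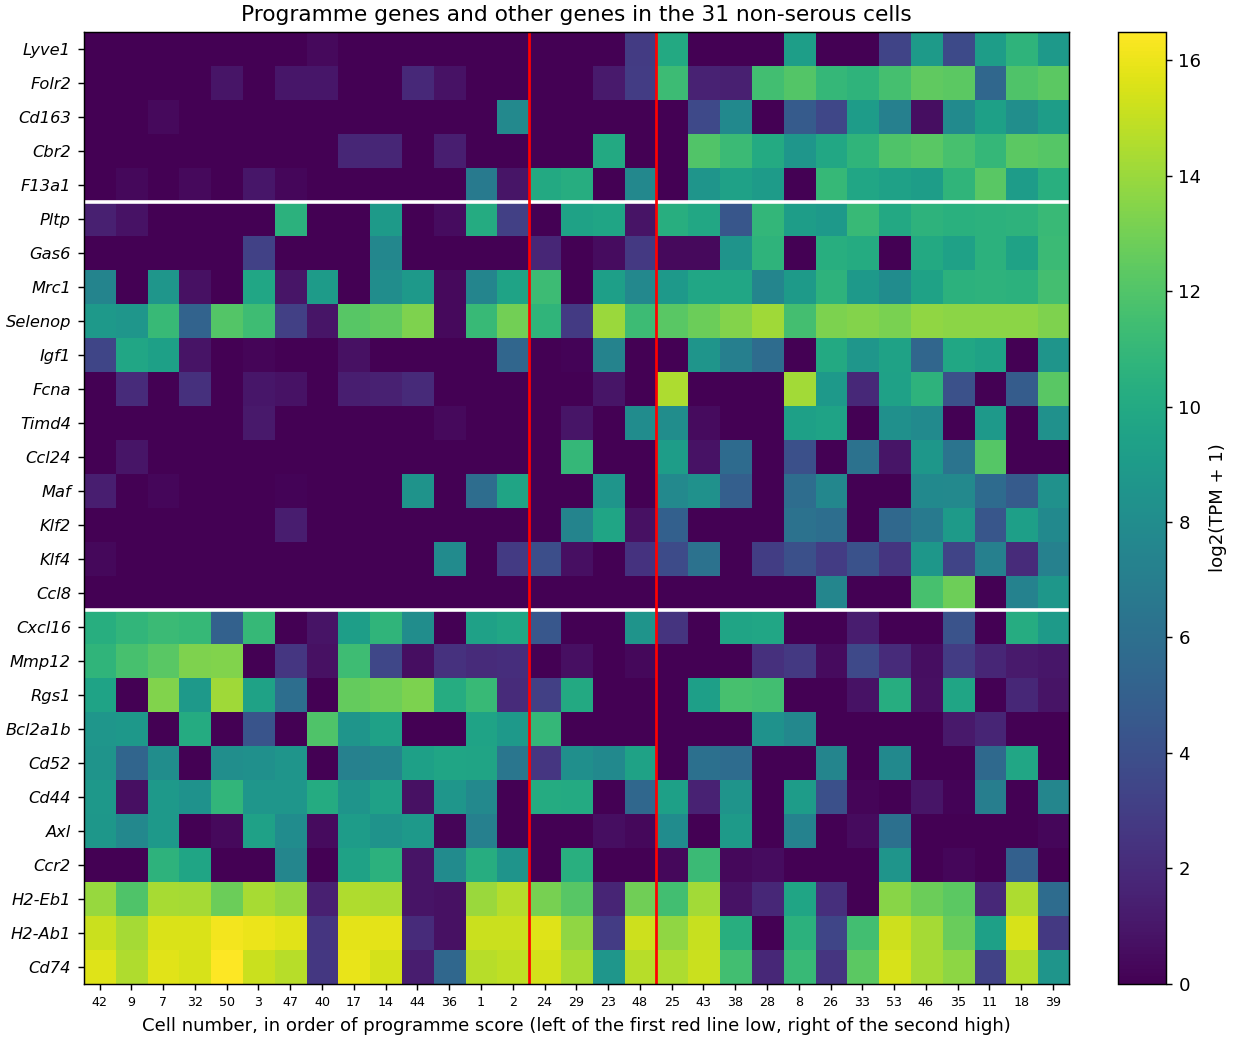
Heat map of log2(TPM + 1) in the 31 non-serous cells, 1 column per cell in order of the programme score, with genes in rows and red lines between low, intermediate and high cells. The 5 programme genes above the first white line chose the groups. Pltp and Mrc1 were at 10 TPM or more in each of the 13 high cells, while the MHC class II genes H2-Eb1, H2-Ab1 and Cd74 were at that level in cells of both groups.

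The score, which chose the groups, ran from 4.26 to 10.6 in the high cells (median 8.07) and from 0 to 1.73 in the low cells (median 0.27). The cells nearest the limits were cell 25 at 4.26 and cell 43 at 5.16 on the high side, and cell 2 at 1.73 and cell 1 at 1.36 on the low side. The intermediate cells had 2.00, 2.05, 2.24 and 2.70. At the serous gate, the closest cells inside were cell 29 at 5.34 and cell 1 at 4.86, a low cell with 580 TPM of Fn1 and 41.3 TPM of Prg4. Outside it, cell 31 had 7.31 and cell 20 had 7.76, and the others 11.5 or more.

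High cells did not all carry the same programme genes. A gene at 10 TPM or more is called present, since a median of 43.5% of the values above 0 in a high cell lay under that level. Cbr2 was present in 12 of the 13 high cells, Folr2 and F13a1 in 11 each, Cd163 in 10 and Lyve1 in 7. In the low cells Cd163 and F13a1 were each present in 1 of 14, Cbr2, Folr2 and Lyve1 in 0. All 5 genes were present together in 4 high cells, 4 in 5 cells, 3 in 3 cells and 2 in 1 cell. Cell 25 had Lyve1 at 1014 TPM and Folr2 at 2548 TPM, with the other 3 genes listed at 0. Cell 38 and cell 43 had Cbr2, F13a1 and Cd163 but Folr2 at 1.77 and 1.93 TPM and Lyve1 listed at 0. Lyve1 had the most uneven presence of the 5, with values of 485 TPM or more in 6 high cells, 12.1 TPM in cell 35, 9.28 TPM in cell 53 and 0 in the other 5.

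Each programme gene was also read in cells grouped by the score of the other 4. Folr2 was then present in 10 of 12 high and 0 of 13 low cells, Cbr2 in 11 of 12 and 1 of 14, and Cd163 in 10 of 13 and 1 of 14. F13a1 was present in 11 of 13 and 4 of 17, and Lyve1 in 6 of 12 and 0 of 13. The 5 genes were proposed with these data in view, so this shows how they went together and supports no count.

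The high cells held somewhat more genes. The number of genes above 0 ran from 1724 to 3446 in high cells (median 2885) and from 1499 to 3390 in low cells (median 2362), and the ranges overlap almost throughout. Genes present per cell had medians of 1614 and 1266.5. Ribosomal protein genes took a median of 2.53% of the TPM in high and 3.49% in low cells, mitochondrial genes 3.49% and 3.02%. How deeply each cell was sequenced cannot be read from TPM. No 2 cells held identical values. The part of library complexity in the differences below was not tested, but counts from a fit with the number of genes above 0 as a linear term are given for the main lists where they differ.

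The macrophage label was checked on 14 identity genes, among them C1qa and C1qb (complement C1q), Csf1r (the CSF1 receptor) and Lyz2 (lysozyme). Their mean level was 7.71 to 10.0 in high cells (median 8.83) and 3.46 to 9.75 in low cells (median 8.13). Of the 14, 2 were higher by 2 or more in the high cells, Tyrobp, a signalling adaptor (2.69), and C1qc (2.02, and 1.21 without cell 40), and 0 were lower, a share near the 14.1% higher over all genes compared. Lyz2 was present in all 27 cells, Csf1r in 13 high and 13 low, and C1qa and C1qb in 13 and 12. Low cells 40 (identity level 3.46) and 36 (4.84) stood below the others. Cell 40 held 6 of 10 alveolar macrophage markers and cell 36 held 4 of 8 T or NK cell markers, which goes against the label for both. High cells 8 and 25 held 4 and 3 of 17 serous cavity macrophage markers. Counts without these 4 cells are given for the lists below where they differ.

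**Figure D2:**
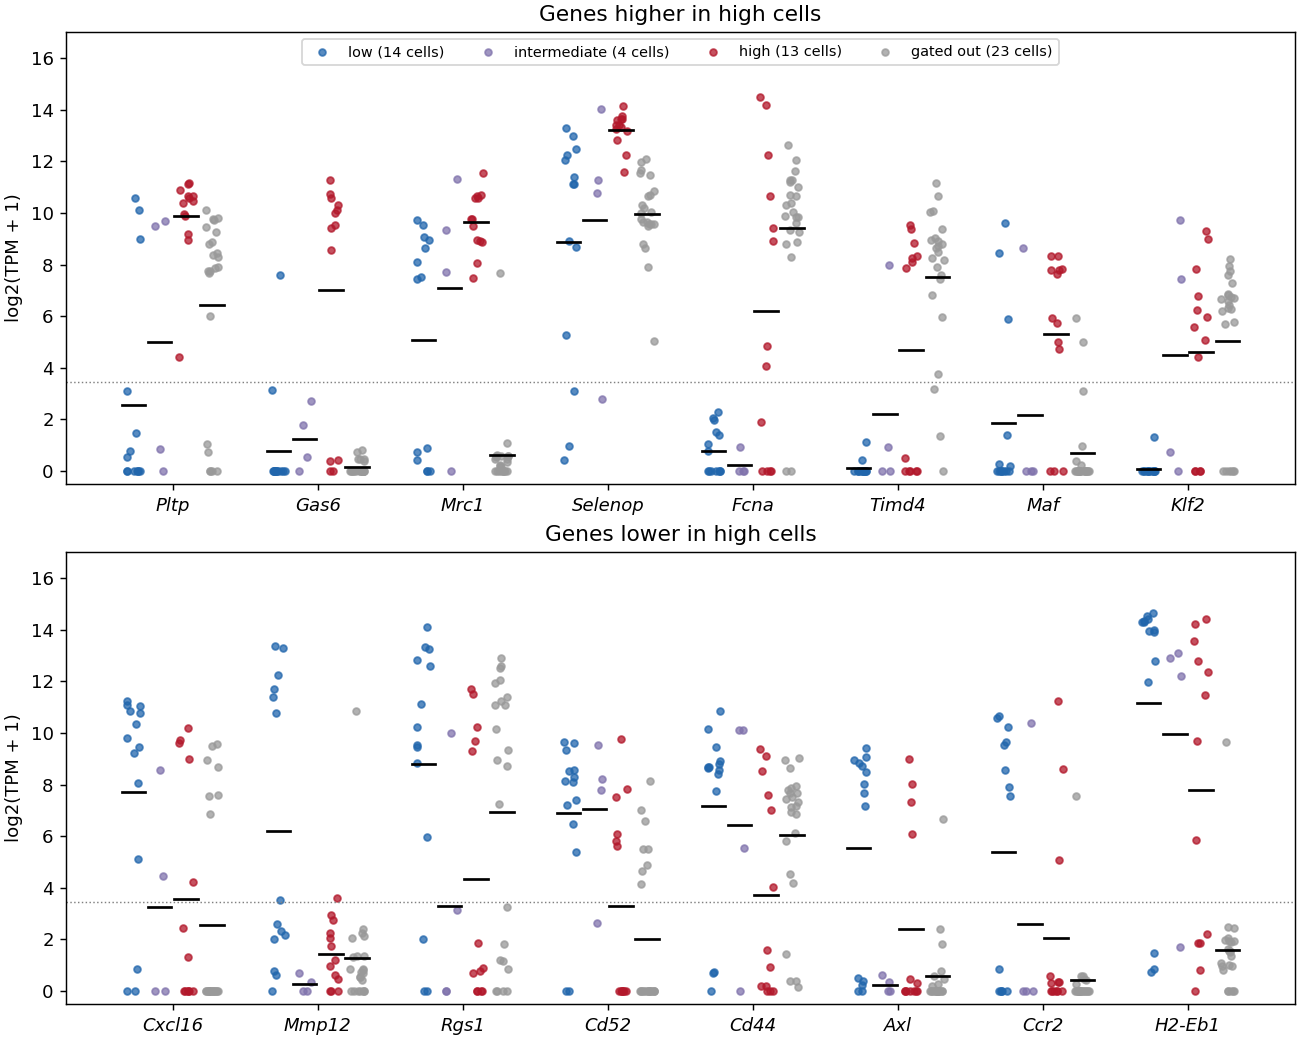
log2(TPM + 1) per cell of 8 genes higher and 8 genes lower in the high cells, with 1 point per cell for the 14 low, 4 intermediate, 13 high and 23 gated-out cells, black bars at the group means and a dotted line at 10 TPM. Pltp and Mrc1 were above the line in all 13 high cells and Gas6 in 9 of them, and high and low cells overlap for every gene shown.

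Of 3409 genes that were compared (called tested genes here, with no statistical test), namely those present in 20% or more of whichever group had the higher mean, 481 had a mean log2(TPM + 1) higher by 2 or more in the high cells, or 14.1% of all, and 147 were lower, or 4.31%. No gene separated the groups: 0 genes, or 0% in each direction, had every high cell above or below every low cell. The median difference over the tested genes was 0.63, with 2184 above 0 and 1225 below. Centred on that median, 208 genes were higher and 375 lower, so the higher share of the calls was 76.6% as measured and 35.7% when centred. Without the 4 cells with markers of other types, 481 of 2928 tested genes were higher and 211 lower. With the linear term for genes above 0 they were 387 and 270 of 3357. Of the 97 genes named here at 2 or more, 22 came under 2 when 1 cell was left out, and the weakest value is given beside the differences printed below. Each gene passed the filter through the group with its higher mean, so the filter favoured genes that differ. The counts describe these cells.

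The largest difference was in Pltp, the phospholipid transfer protein that moves lipids between lipoproteins. Pltp ran from 20.3 TPM through a median of 1398 to 2267 TPM in high cells, and from 0 through 0.235 to 1534 TPM in low cells. It was present in all 13 high cells (95% interval 75.3 to 100%, exact Clopper-Pearson, counting error only) and in 3 of 14 low cells (21.4%, 4.66 to 50.8%), a difference of 7.32 in mean log2(TPM + 1). Ly6e, a GPI-anchored surface protein of the Ly6 family, had a median of 4078 TPM against 2.71 TPM and was present in 12 high and 5 low cells (difference 6.80). Both genes had low cells that reached the range of the high ones.

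Gas6, the bridging ligand that links phosphatidylserine on dying cells to the receptors Axl and Mertk, ran from 0 through 738 to 2463 TPM in high cells and from 0 through 0 to 193 TPM in low cells. It was present in 9 of 13 high cells (69.2%, 38.6 to 90.9%) and in 1 of 14 low cells (7.14%, 0.181 to 33.9%), a difference of 6.26. Its receptor Axl lay the other way, from 0 through 0 to 505 TPM in high cells and from 0 through 233 to 683 TPM in low cells. Axl was present in 4 high and 9 low cells, a difference of -3.14. Gas6 and Axl were present in the same cell in 1 of 13 high and 1 of 14 low cells. Mertk, the related receptor, was present in 3 and 4 cells with a difference of -0.02. Of the 14 efferocytosis genes (uptake of dying cells), 11 were tested. Of these, 3 were higher by 2 or more, Gas6, Timd4 and Stab1, and 1 was lower, Axl. Over all genes compared, 14.1% were higher and 4.31% lower. The median difference of the list was 0.0019, below the 0.63 over all genes compared. With a linear term for the number of genes above 0, 2 of the list were lower. The 3 higher ones also stand in the list of partner genes that follows.

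A list of 22 genes known from Lyve1-expressing macrophages elsewhere, the partner genes, was higher as a group: 20 of its 21 tested members were higher by 2 or more and 0 were lower, with a median difference of 4.18 against 0.63 over all tested genes. Of all tested genes 14.1% were higher and 4.31% lower. The list was drawn up with results of these data known and is not independent evidence. The mean level of the 22 genes was 3.80 to 9.40 in high cells (median 5.51) and 0.34 to 3.54 in low cells (median 2.16). The lowest high cell, cell 43, thus lay just above the highest low cell, cell 2. Without the 4 cells with markers of other types 21 of 21 were higher, with the linear term 20, and centred 18.

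Among the secreted members, Selenop, the selenium carrier selenoprotein P, ran from 3064 through 10912 to 17858 TPM in high cells and from 0.36 through 2230 to 10074 TPM in low cells. It was present in 13 and 11 cells (difference 4.37). Low cells 36, 40 and 47 had it under 10 TPM, and the lower mean level in the other low cells also entered the difference. Pf4 (the chemokine CXCL4) was at 80.4 to 2602 TPM in high and 0 to 1554 TPM in low cells (difference 4.75). Igf1, insulin-like growth factor 1, was present in 10 high and 3 low cells (4.26). Igf1 and Gas6 were the 2 higher ones of 3 growth factor genes tested, against 14.1% of all tested genes. Fcna, the collagen-like lectin ficolin A, was uneven within the high cells, from 0 through 27.4 to 22903 TPM, and reached 3.87 TPM at most in low cells (5.42). Its highest values were in cells 25 and 8 (log2(TPM + 1) of 14.5 and 14.2), the high cells with 3 and 4 serous cavity markers. Ccl24, an eosinophil-attracting chemokine also called eotaxin-2, was present in 7 high cells and 0 low cells (4.10).

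Among the receptors, Mrc1, the mannose receptor CD206, ran from 180 through 859 to 2962 TPM in high cells and from 0 through 179 to 856 TPM in low cells. Mrc1 was present in all 13 high and 8 of 14 low cells (difference 4.57), and the ranges overlap. Fcgrt, the neonatal Fc receptor that recycles IgG, was present in 13 and 9 cells (4.40), and Stab1, the scavenger receptor stabilin-1, in 9 and 5 (3.37). Dab2, an endocytic adaptor, was present in 12 and 7 cells (3.94), and Cd36, a scavenger receptor for oxidised lipid, in 9 and 5 (3.91). Of 10 scavenger and endocytic receptor genes tested, 5 were higher and 0 lower, against 14.1% and 4.31% of all tested genes, each of the 5 a partner gene as well. With the linear term 4 were higher and 1 lower, and centred 4 and 0. Timd4, a phosphatidylserine receptor of long-lived tissue macrophages, was present in 7 of 13 high cells (53.8%, 25.1 to 80.8%) and in 0 of 14 low cells, so that 3 counts allow a share of up to 21.4%. Cd38, an NAD-consuming surface enzyme, was present in 6 and 0 cells, and Ednrb, the endothelin B receptor, in 5 and 0. The lectins Clec10a, Cd209f and Cd209g were present in 6, 5 and 3 high cells and in 0 low cells, with Cd209g at 2.35 and at 1.58 without cell 18. Ninj1, an adhesion protein of membrane rupture, was present in 8 and 4 cells (3.70), and Colec12, a scavenger receptor with a collagen stalk, in 4 and 0 (2.18, and 1.60 without cell 26). The 2 members that were not higher by 2 or more were Ltc4s, leukotriene C4 synthase (7 and 3 cells, 1.95), and Cd209d, which was present in 1 high cell and was not tested.

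**Figure D3:**
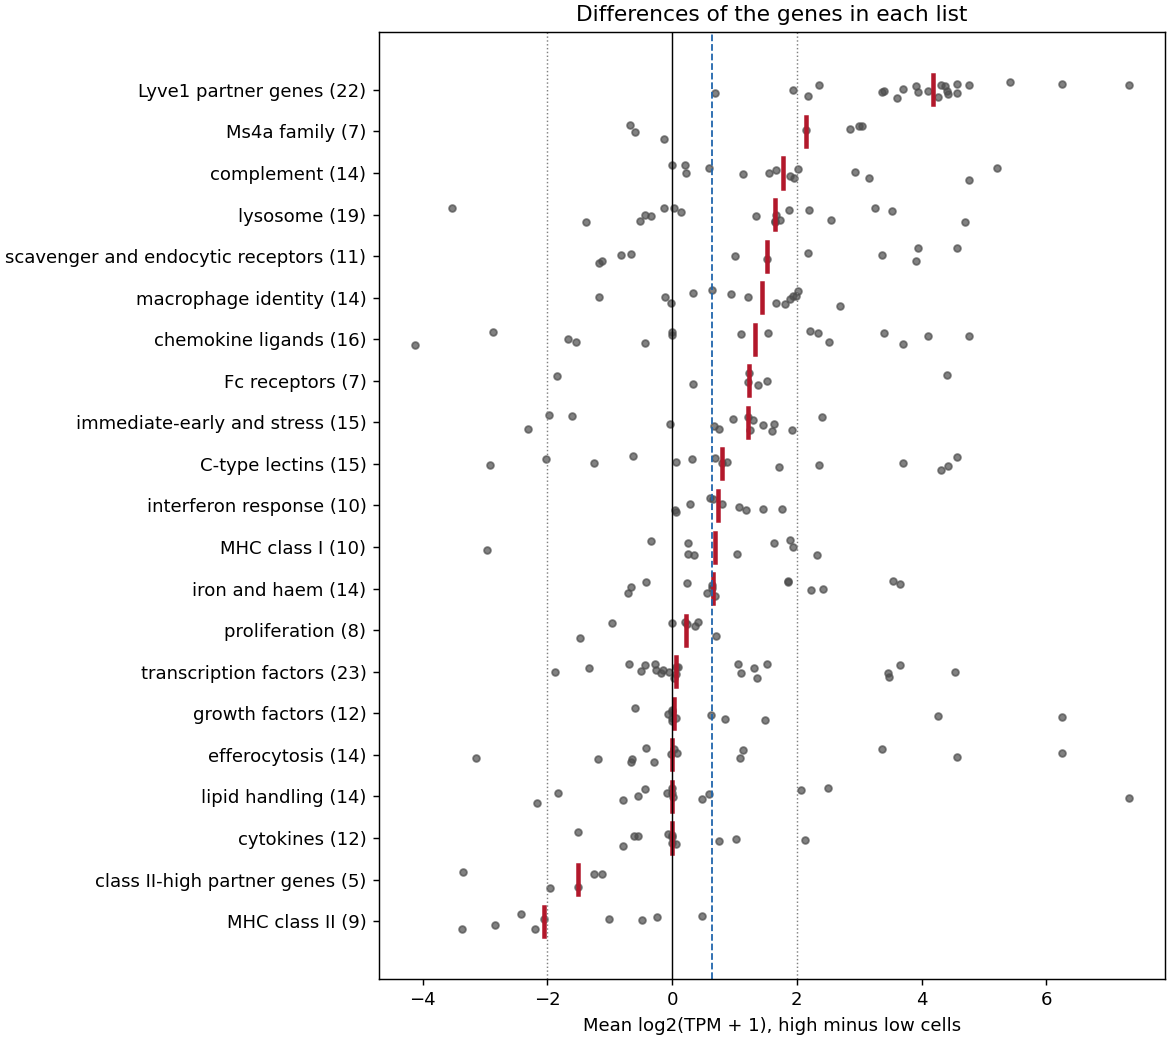
Difference in mean log2(TPM + 1), high minus low cells, of each gene in 21 lists, with 1 point per gene, a red bar at the median of the list, a dashed line at the median of all tested genes (0.63) and dotted lines at differences of 2 in either direction. The numbers in brackets count the genes of a list. The Lyve1 partner genes have the highest median (4.18) and the MHC class II genes the lowest (-2.05).

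Of 23 transcription factor genes, 16 were tested, 4 were higher by 2 or more and 0 were lower, against 14.1% and 4.31% of all tested genes. The median difference of the list was 0.06, below the 0.63 over all tested genes. Klf2, a Krüppel-like factor known from quiescent endothelium and leukocytes, ran from 0 through 47.5 to 630 TPM in high cells and reached no more than 1.49 TPM in low cells. It was present in 9 and 0 cells (difference 4.53). Klf4, its close relative, was present in 7 and 1 cells (3.46) and Tcf4, an E protein, in 8 and 1 (3.65). Maf, a factor known to drive the Lyve1 kind of tissue macrophage, was present in 10 high and 3 low cells (3.47), and its median was 59.7 TPM against 0. Maf and Klf2 were present together in 8 of 13 high and 0 of 14 low cells. Runx3 was present in 1 high and 5 low cells (-1.88). Centred on the median of all tested genes, 4 were higher and 1 lower, and the median difference of the list was -0.58. The counts were also 4 and 1 with the linear term and without the 4 cells with markers of other types.

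The 16 chemokine ligand genes went in both directions, with 7 of 12 tested higher and 2 lower by 2 or more (median difference 1.33), against 14.1% and 4.31% of all tested genes. The partner genes Pf4 and Ccl24 were among the 7. Ccl8, a ligand that draws monocytes and T cells, was listed at 0 in all 14 low cells and was present in 5 high cells, with a highest value of 7429 TPM (3.70). Ccl2 and Ccl7, ligands of the monocyte receptor CCR2, were present in 7 and 4 high and in 4 and 1 low cells (2.34 and 2.52, and 1.82 without cell 35 and 1.70 without cell 43). Ccl9 was present in 9 and 6 cells (3.40). Cxcl16, a membrane-bound ligand of CXCR6 on T cells, was the counterpart, from 0 to 1175 TPM in high cells and from 0 through 791 to 2424 TPM in low cells. It was present in 5 of 13 high (38.5%, 13.9 to 68.4%) and 11 of 14 low cells (78.6%, 49.2 to 95.3%), a difference of -4.13. Cxcl2, a neutrophil chemokine, was present in 5 and 10 cells (-2.87), and Ccl3 and Ccl4, inflammatory chemokines, in 1 and 2 high and 4 and 5 low cells (-1.68 and -1.55). With the centring, 4 ligands were higher and 4 lower, with the linear term 5 and 3, and without the 4 cells with markers of other types 7 and 3.

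Complement genes were higher in 5 of 11 tested and lower in 0 (median difference 1.78), against 14.1% and 4.31% of all tested genes. Cfp, properdin, the stabiliser of the alternative pathway, was present in 9 and 3 cells (4.75). C3 and C4b, the central components, were present in 5 and 4 high cells and in 0 low cells (3.16 and 2.93). Of the C1q chains, C1qc was at a difference of 2.02 and C1qa and C1qb at 1.67 and 1.89, just above and below the limit of 2, and C1qc was at 1.21 without cell 40 and at -0.020 as a difference of medians. Without the 4 cells with markers of other types, 4 of 10 were higher and 0 lower, and centred 4 of 11 and 0. The median difference of the list without those cells was 0.67, near the 0.58 over all genes tested in that setting.

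Genes of iron and haem handling were higher in 4 of 13 tested and lower in 0, against 14.1% and 4.31% of all tested genes, and the median difference of 0.66 was close to that of all tested genes (0.63). Blvrb, biliverdin reductase B, was present in 8 high and 3 low cells (3.66), Cp, the ferroxidase ceruloplasmin, in 6 and 1 (3.55) and Slc48a1, a haem transporter, in 5 and 1 (2.42, and 1.99 without cell 43). Trf, transferrin, was present in 13 and 12 cells, with medians of 3406 and 1064 TPM (2.22, and 1.63 without cell 40). Hmox1, haem oxygenase 1, was present in 5 and 2 cells (1.86). Slc40a1, the iron exporter ferroportin, was present in 3 high cells and listed at 0 in all low cells (1.85). With the centring 2 of the 13 were higher, with the linear term 3, and without the 4 cells 3 of 12.

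Lysosomal genes were higher in 5 of 19 and lower in 1 (median difference 1.65), against 14.1% and 4.31% of all tested genes. They were 4 and 1 without the 4 cells with markers of other types and with the linear term, and 3 and 2 when centred. Ctsd, the protease cathepsin D, had a median of 1587 TPM in high and 3.94 TPM in low cells and was present in 12 and 6 (4.69). Ctsh, Lamp1, Ctsb and Lamp2, a pair of cathepsins and a pair of lysosomal membrane proteins, were higher by 3.53, 3.26, 2.55 and 2.20. Ctsb was at 1.96 without cell 32 and Lamp2 at 1.76 without cell 50. Of 8 lipid handling genes tested, 3 were higher, Pltp, Apoe and Plin2, and 1 lower, against 14.1% and 4.31% of all tested genes. Apoe, apolipoprotein E, had medians of 45693 and 18594 TPM, and Plin2, a coat protein of lipid droplets, of 1220 and 961 TPM. Their differences were 1.62 without cell 47 and 1.57 without cell 2. Lpl, lipoprotein lipase, was lower (-2.16, and -1.74 without cell 32), present in 2 and 6 cells. Among the lipid genes, 1 was higher and 2 were lower when centred or without the 4 cells with markers of other types, and with the linear term 3 and 0.

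Other large differences were in genes outside the lists. Med28, a Mediator subunit, Laptm4a, a lysosomal membrane protein, Eps15, an endocytic adaptor, Pmp22, a membrane protein known from myelin, and Snx2, a sorting nexin, were higher by 5.05 to 6.02 and present in 8 to 12 high and 1 to 4 low cells. Glmp, a lysosomal membrane protein, was present in 10 and 3 cells and Tsc22d3, the glucocorticoid-induced gene GILZ, in 12 and 6. Ndufs7, a subunit of respiratory complex I, and 1110007C09Rik were each present in 8 high cells and 0 low cells. Gm10134 was present in 10 and 2.

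As measured, fewer genes were higher in the low cells (147 against 481), but when centred more were (375 against 208). With the linear term the counts were 270 against 387. None of the 15 genes with the largest differences in this direction was present in all 14 low cells. Rabac1, an acceptor of prenylated Rab proteins, was present in 1 high and 9 low cells, with a median of 0 and of 271 TPM (difference -4.91). Mmp12, macrophage elastase, did not pass 11.3 TPM in high cells and ran from 0 through 7.74 to 10692 TPM in low cells, with presence in 1 and 7 (-4.77). Mmp12 was thus present in 7 low cells and under 10 TPM in the other 7. Rgs1, a regulator of chemokine receptor signalling, had medians of 0.85 and 969 TPM and was present in 5 and 11 cells (-4.45). Cd52, a small GPI-anchored leukocyte protein, was present in 6 and 12 cells (-3.63), and Cd44, the other major hyaluronan receptor, in 6 and 11 (-3.42). Zmynd15 was present in 0 high and 6 low cells (-3.48).

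Rab29 (a Rab GTPase of endolysosomes) and Gatm (an enzyme of creatine synthesis) were present in 2 and 5 high cells and in 9 low cells each, with differences of -4.21 and -3.72. Vps25, an ESCRT subunit, and Srp68, a subunit of the signal recognition particle, were both at -3.45, with presence in 3 and 1 high and 9 and 6 low cells. Bcl2a1b (-4.28), of a survival gene family with near-identical copies, and the gene model Gm24979 (-3.68) are uncertain in the counting of their reads.

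MHC class II genes were lower on average in the high cells, yet most high cells held them. Of 7 tested genes, 5 were lower by 2 or more and 0 higher (median difference -2.05), against 4.31% and 14.1% of all tested genes. H2-Ab1, the beta chain of I-A, ran from 0 through 2866 to 45979 TPM in high cells and from 0.65 through 42376 to 74579 TPM in low cells. It was present in 10 of 13 high and 11 of 14 low cells (76.9% and 78.6%), so the groups differed in level (-2.20) and hardly in presence. Without cell 28, a high cell with H2-Ab1 listed at 0, the difference was -1.34, and leaving out any 1 of 13 of the 27 cells took it under the limit of 2. Cd74, the invariant chain, had medians of 5043 and 34263 TPM (present in 10 and 12, -2.05), and without cell 28 a difference of -1.32; any 1 of 15 cells left out ended its call. H2-Aa, the alpha chain of I-A, had medians of 2862 and 21839 TPM (-2.84) and H2-Eb1, the beta chain of I-E, 829 and 16067 TPM (-3.37). H2-DMb1, of the peptide exchange factor H2-M, had 149 and 1849 TPM (-2.43, and -1.95 without cell 11), whereas its partner H2-DMa was present in 8 and 8 cells (0.47). H2-DMb2 was present in 1 and 3 cells, and Ciita, the class II transactivator, in 1 and 2.

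The class II level, the mean over 9 genes, was 0.94 to 9.83 in high cells (median 6.41) and 0.77 to 10.8 in low cells (median 8.67). The lowest low cells were cell 36 (0.77) and cell 40 (1.08), the cells with T or NK cell and alveolar markers. Cell 44, a low cell without such markers, had 1.98. With the linear term for genes above 0, 2 of the 7 genes were lower by 2 or more. Without the 4 cells with markers of other types, 5 were lower and the median difference was -3.87. Lyve1 and H2-Ab1 were present together in 6 of the 7 high cells with Lyve1. Cell 18 had 1722 TPM of Lyve1 and 45979 TPM of H2-Ab1, while cell 39 had 485 TPM of Lyve1 and 5.73 TPM of H2-Ab1.

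**Figure D4:**
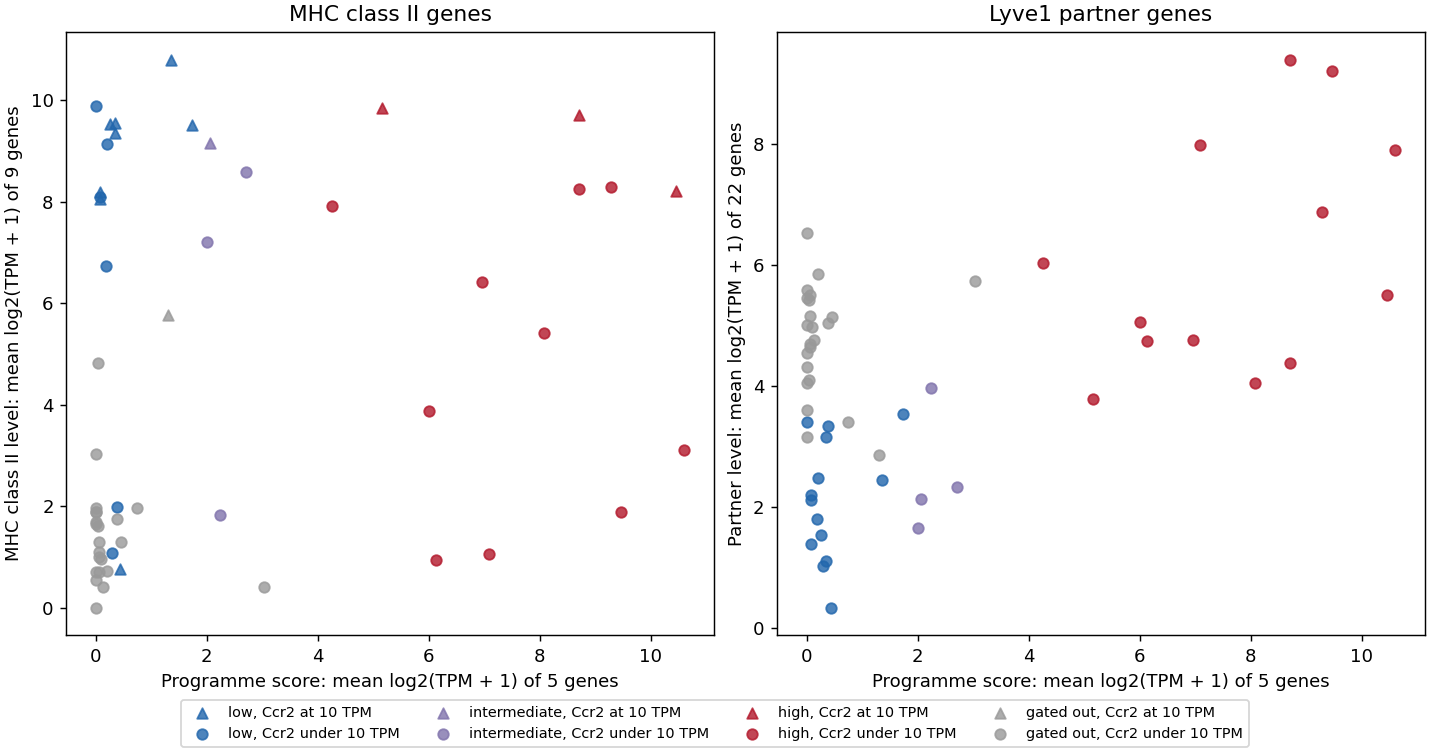
MHC class II level (left) and partner gene level (right) against the programme score, all as mean log2(TPM + 1), with 1 point per cell for all 54 cells, coloured by group and with triangles where Ccr2 was at 10 TPM or more in the left panel. In class II level high cells lie from 0.94 to 9.83 and low cells from 0.77 to 10.8, so they overlap, whereas the partner level of each high cell, 3.80 or more, lies above that of each low cell, 3.54 or less. The partner list was drawn up with results of these data known. Intermediate cell 23, at 3.98, lies above the lowest high cell in partner level, and the gated-out cells lie from 2.87 to 6.54.

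Of the 5 partner genes of class II-high macrophages, 3 were tested and 1, Ccr2, was lower by 2 or more, against 4.31% of all tested genes. The count was 2 of 3 with the linear term, when centred and without the 4 cells with markers of other types. Ccr2, the receptor that brings monocytes into tissue, had medians of 0.25 and 214 TPM and was present in 3 of 13 high (23.1%, 5.04 to 53.8%) and 8 of 14 low cells (57.1%, 28.9 to 82.3%), a difference of -3.36. The 3 high cells with Ccr2 were cells 18, 43 and 53, and all 3 had H2-Ab1 at 34792 TPM or more. Ccr2 was present beside Timd4 in 1 high cell and in 0 low cells. Cell 36, with its T or NK cell markers, was among the 8 low cells with Ccr2. Cx3cr1, the fractalkine receptor, was present in 4 and 6 cells (-1.13), and Cd72, a lectin-like coreceptor, in 3 and 5 (-1.96). Itgax (CD11c) and Il1b were present in 0 high and 2 low cells each.

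MHC class I genes showed 1 higher (H2-K1, 2.33, and 1.64 without cell 40) and 1 lower (Psmb9, an immunoproteasome subunit, -2.96) of 9 tested. Over all tested genes 14.1% were higher and 4.31% lower. The class I counts were 0 and 1 without the 4 cells with markers of other types, with the linear term and when centred. Tap2, a subunit of the peptide transporter, was present in 5 and 3 cells (1.94), and Tapbp, which bridges it to class I, in 11 and 9. Of 7 Fc receptor genes 1 was higher, Fcgrt, a share near the 14.1% of all tested genes, and without the 4 cells or centred 1 was also lower. Fcgr4 was present in 0 high and 3 low cells (-1.85). Of 11 C-type lectin genes tested, 5 were higher and 2 lower, against 14.1% and 4.31% of all tested genes. They were 6 and 2 without the 4 cells with markers of other types and 4 and 2 when centred. Of the 5 higher ones, Mrc1, Clec10a, Cd209f and Cd209g are partner genes as well, and Clec4a1 is not. Clec4a1 was present in 9 and 4 cells (3.70), while its relatives Clec4n (dectin-2, -2.92) and Clec4a2 (DCIR, -2.02, and -1.58 without cell 17) were lower, so relatives of 1 lectin family lay in opposite directions. The membrane-spanning Ms4a family had 4 of 5 tested genes higher and 0 lower, against 14.1% and 4.31% of all tested genes. The higher ones were Ms4a4a (3.05), Ms4a6b (present in 8 and 5 cells), Ms4a6d (2.85) and Ms4a6c (2.15, and 1.71 without cell 33). With the linear term for genes above 0, 1 of the 5 was higher, and without those 4 cells or centred 3 were. Ms4a7 was present in 9 and 10 cells (-0.68).

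Spearman's rho with the score over the 31 non-serous cells is given as a description with no p. Of 1243 genes present in at least 10 of them, the highest were Pltp (0.76), Ly6e (0.72), Selenop (0.72), Gas6 (0.71), Med28 (0.68), Klf2 (0.66), Tgfbi (0.64), Mrc1 (0.63), Ctsd (0.62) and Lamtor1 (0.61). Tgfbi encodes a secreted matrix protein and Lamtor1 a lysosomal anchor of mTORC1 signalling. The lowest were Rps14 (-0.55), Ndufc1 (-0.54), Axl (-0.51), Lsp1 (-0.50) and Rps3 (-0.50). Rps14 and Rps3 are ribosomal proteins, Ndufc1 a subunit of respiratory complex I and Lsp1 an actin-binding protein of leukocytes. The points share the score's own cells and differ in library complexity. Of the 15 genes with the largest differences in each direction, the mean of the 4 intermediate cells lay between those of high and low cells for 11 of the higher and 9 of the lower.

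Against the 23 cells at or above the serous gate, the genes higher in the high cells differed in presence. Folr2, Cbr2, Gas6, Cd209f and Ccl8 were present in 0 of the 23 (3 counts allow a share of up to 13%), Mrc1 in 1 and Stab1 and Maf in 2. In contrast, Timd4 was present in 20, Fcna in 21, Pf4 in 22, Ltc4s in 21, Ccl24 in 18, Ednrb in 23, Cfp in 23 and Klf2 in 17 of the 23. In those cells the median partner level was 4.98, and the median class II level 1.29. Cell 31, the closest of them to the gate, held 6 of 10 alveolar and 2 of 17 serous cavity markers and a class II level of 5.77. It was the 1 cell with Mrc1, was among those with Maf, and had Timd4 and Fcna listed at 0. The gate chose the 23 cells by measured values, so these presences are a description with no test.

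The lists of markers of other cell types were read in the same way. The serous cavity list had levels of 0.04 to 1.80 in high cells (median 0.57) and 0.08 to 1.09 in low cells (median 0.46), with at least 1 of 17 markers present in 8 cells of each. Of its members Ecm1, a matrix protein, was present in 7 high and 4 low cells (2.13, and 1.67 without cell 25) and Xdh, xanthine dehydrogenase, in 4 and 1 (1.86). The alveolar list had 0.28 to 1.24 (median 0.68) and 0.61 to 6.82 (median 0.92), the highest being cell 40. The platelet, mesothelial, mast cell or basophil and erythroid genes were listed at 0 in all 27 cells, and no fibroblast or lymphatic endothelial gene was present. Lymphatic endothelium and platelets also express Lyve1 and Pf4, and none of 6 lymphatic and 6 platelet markers was present in any high cell. Of the neutrophil list Mmp9, gelatinase B, was present in 5 high cells and listed at 0 in the low cells (3.12), while 5 of the 7 neutrophil genes were present in no high cell. Mmp9 and Mmp12 were not present in the same cell. At least 1 of 8 monocyte markers was present in 0 high and 4 low cells, of 8 dendritic cell markers in 1 and 0, of 8 T or NK cell markers in 0 and 1, of 7 blood endothelial markers in 0 and 2 and of 5 epithelial markers in 1 and 0. Of the B cell list, Ighm was present in 9 high and 10 low cells. The part of these markers in the differences was not tested.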

How the data were processed

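The data are 54 tables, 1 per cell, of TPM over 43280 gene symbols. TPM values were made and deposited by the authors with RSEM, per the submitters' processing notes; its version, the aligner, the genome build and the annotation are not given in the sources used here. TPM keeps no depth, so read depth per cell is unknown.

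Levels are log2(TPM + 1), and differences are means of high minus low cells, which understate changes of low genes. Tested genes were at 10 TPM or more in at least 20% of cells of the group with the higher mean. A difference of 2 or more was called. No test was run, since the labels give 1 group. Named genes were the 15 with the largest difference in each direction among genes at 10 TPM or more in at least 40% of that group, outside ribosomal and mitochondrial genes. They also include up to 4 per list by absolute difference, and the 10 highest and 5 lowest by rho. Further list members named beside these (such as Mertk, H2-DMa, Hmox1, Ccl3 and Cd209d) were picked once values were known. A few genes that the rule picks are not reported here. The members and the 38 lists were chosen with earlier results of these data known. No doublet caller was run, as the tables hold no molecule counts. Adgre1 and Selenop were found under older symbols, through RefSeq GRCm38.p6. Shares carry exact 95% Clopper-Pearson intervals, and a share of 0 the limit of 3 counts; both cover counting error only. The steps were tested on simulated data. Python 3.11.15, numpy 2.4.6, pandas 2.3.3, scipy 1.17.1 and matplotlib 3.10.9 were used.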

Additional observations from a re-analysis of the deposited data

How the results depend on the processing

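The group differences and gene counts kept their direction under the alternatives run, except that centring turned the larger share of calls from higher to lower. Without the 4 cells with markers of other cell types, the MHC class II difference went from -1.57 to -2.89 and the macrophage identity difference from 1.13 to 0.60. Without cells of low identity, which are cells 36 and 40, they were -2.64 and 0.54. The identity difference was also 0.70 with medians over cells, 0.71 in the shared range of genes above 0 (12 high and 13 low cells) and 0.50 when centred. The counts of 481 higher and 147 lower genes were 122 and 41 with a pseudocount of 10, 962 and 330 with 0.1, and 208 and 375 when centred. With the linear term for genes above 0, 270 were lower. A larger pseudocount shrinks and a smaller one widens differences from 0 by construction; otherwise the cause was not tested. The removal of cells 8 and 25, of cells 36 and 40 and of cell 1 was chosen after seeing the data. With each of the 27 cells left out in turn, the partner gene difference was 3.72 to 4.19, MHC class II -2.08 to -1.17, class II-high partners -2.09 to -1.35, identity 0.80 to 1.29, genes above 0 343 to 504, higher genes 442 to 554 and lower genes 133 to 186. Of 125 genes named, 97 differed by 2 or more, and 88 of them kept their sign in all 22 alternatives, 48 at 2 or more. With medians over cells C1qc was at -0.020 and the others at 0. No paired analysis was possible because the labels give 1 group and no shared replicate numbers. Depth is unknown, so a gene listed at 0 is not shown to be absent from a cell.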

Other observations

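The groups of genes not described above held few genes past a difference of 2. Shares over all tested genes were 14.1% higher and 4.31% lower. Of 14 immediate-early and stress genes tested, 1 was higher by 2 or more, Fosb (present in 10 high and 6 low cells, difference 2.41), and 1 was lower, Nr4a1 (5 and 9 cells, -2.30, and -1.87 without cell 3). Without the 4 cells with markers of other types 2 were higher and 2 lower, and centred 0 and 3. The median difference of the list was 1.21, above the 0.63 over all tested genes. Atf3, a stress-induced factor, was present in 8 and 10 cells (-1.98). Of 12 cytokine genes 1 was tested, Il16, a T cell attractant, present in 6 and 2 cells (2.13, and 1.60 without cell 33), and it was under 2 with the linear term and when centred. The interferon response list had median levels of 1.43 in high and 0.81 in low cells, with 0 of 2 tested genes past the limit. No gene of the proliferation list passed the filter, with median levels of 0.29 and 0.18. Pcna, a replication clamp, was present in 2 high and 3 low cells. Ear2, a ribonuclease of the alveolar list, was present in 1 high and 4 low cells (-3.39), with a highest value of 16558 TPM in low cells. Cells 36 and 40, which held markers of other types, were among those low cells. The difference was -2.68 without cell 40. Without the 4 cells with markers of other types, no gene of the alveolar list passed the filter.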
